A study of Penicillium oxalicum with 6 samples.

Results

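The genes described are the 100 most abundant transcripts of the Penicillium oxalicum strain Ku70 on cellulose, out of 9834 gene IDs. They were chosen by their mean FPKM, which divides a gene's fragment count by its length and by the size of the library, over the 3 Ku70 libraries. A set of IDs was left out beforehand, namely POX06509, POX01150 to POX01200, POX01675 to POX01715, POX05835 to POX05885, POX09330 to POX09370, POX09450 to POX09490, and all from POX09580 upward. The RNA came from mycelium kept for 24 h in liquid medium whose carbon source was Avicel (microcrystalline cellulose) at 1%, with 1 g of mycelium given for each library. The groups were MuPOX06509, titled as the mutant of gene POX06509, with 3 libraries, and Ku70, titled as the mutant of Ku70, with 3 libraries, each told apart by the letters F, S and T. The series title speaks of a deletion of POX06509, and the series is about transcription factors acting on cellulase and xylanase genes. The growth text names the strain MuKu70 for all libraries, but the labels do not state whether the deletion strain also lacks Ku70, and a strain difference other than POX06509 cannot be told apart from its loss. Nothing in the labels says that libraries of a strain were separate cultures, so a p-value here speaks of libraries and may reflect technical spread.

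As background, a fungus on insoluble cellulose secretes cellulases and hemicellulases that cut the polymer into soluble sugars, which transporters then bring into the cell. Transcription factors switch these enzyme genes on when the polymer is the carbon source, and P. oxalicum is studied for the enzymes it releases. Transcripts of the general machinery of growth, such as those for ribosomal proteins, also rank high in growing fungal mycelium. Which of the 100 genes belong to which of these classes is not reported here: the files do not pair the IDs with names, and 0 of the 9834 IDs equal an entry of the reference gene table used. There was a single medium, so no level can be tied to cellulose as against another carbon source.

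Total expected counts, which are estimates that divide ambiguous reads between genes, ran from 14605326 to 15219424 per library. The library letters being F, S and T in that order, POX06509 had 0, 0 and 1 counts in MuPOX06509 and 1405, 2580 and 1851 in Ku70, so the target is nearly absent where the strain label says it should be. The members were deeply covered, with at least 5912 counts for any member in any library, so counting error is small beside the spread between libraries. All 100 members entered the test of the 8336 genes that passed the low-count filter.

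POX05554 was the most abundant member, and it had 14517, 18149 and 22427 FPKM in MuPOX06509, against 15589, 23412 and 23979 FPKM in Ku70. The F library was the lowest of each strain, and the groups overlapped. POX07896 was the second, with 6401, 7336 and 5882 FPKM in MuPOX06509, against 14014, 10780 and 13398 FPKM in Ku70. Every MuPOX06509 value of this gene lay below every Ku70 value, and among the 10 most abundant members it was the only one for which that was so. POX05482 and POX04781, described further on, did not overlap in the other direction. Over all tested genes the groups did not overlap, in either direction, for 31.1%, so a lack of overlap alone does not single out a gene. POX06702, which held the largest number of counts of all members, had 10082, 13003 and 13007 FPKM in MuPOX06509, against 9599, 13141 and 8984 FPKM in Ku70. It took 1.69% of all counts on average in MuPOX06509 and 1.49% in Ku70, and its groups overlapped.

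The remaining 7 of the 10 most abundant members averaged between 6013 and 10762 FPKM in Ku70. POX00659 averaged 9969 ± 2418 FPKM in MuPOX06509 and 10762 ± 1770 FPKM in Ku70 (SD, n = 3 each). POX03022 averaged 7213 ± 1632 FPKM in MuPOX06509 and 8903 ± 2314 FPKM in Ku70 (SD, n = 3 each); its expected counts were fractional, so part of its reads also fitted other genes. POX06884 averaged 8507 ± 729 FPKM in MuPOX06509 and 8228 ± 801 FPKM in Ku70 (SD, n = 3 each). These differences of POX00659, POX03022 and POX06884 were smaller than the SD of Ku70. POX05497 averaged 7032 ± 2097 FPKM in MuPOX06509 and 6231 ± 975 FPKM in Ku70, and POX08583 averaged 6082 ± 1993 FPKM in MuPOX06509 and 6013 ± 428 FPKM in Ku70 (SD, n = 3 each). For both of these genes MuPOX06509 library F stood above the other libraries of its strain, with 9449.8 FPKM of POX05497 and 8382 FPKM of POX08583.

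Another pair of the 10, POX05482 and POX04781, was higher in each MuPOX06509 library than in any Ku70 library. POX05482 had 11696, 8848 and 11023 FPKM in MuPOX06509, against 6540, 7954 and 5801 FPKM in Ku70. POX04781 had 12103, 8721 and 9635 FPKM in MuPOX06509, against 6386, 7936 and 5192 FPKM in Ku70. Ku70 library S was the highest Ku70 library for both, and the nearest to MuPOX06509. Neither gene passed the test across all genes, as given with the fitted changes.

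**Figure D1:**
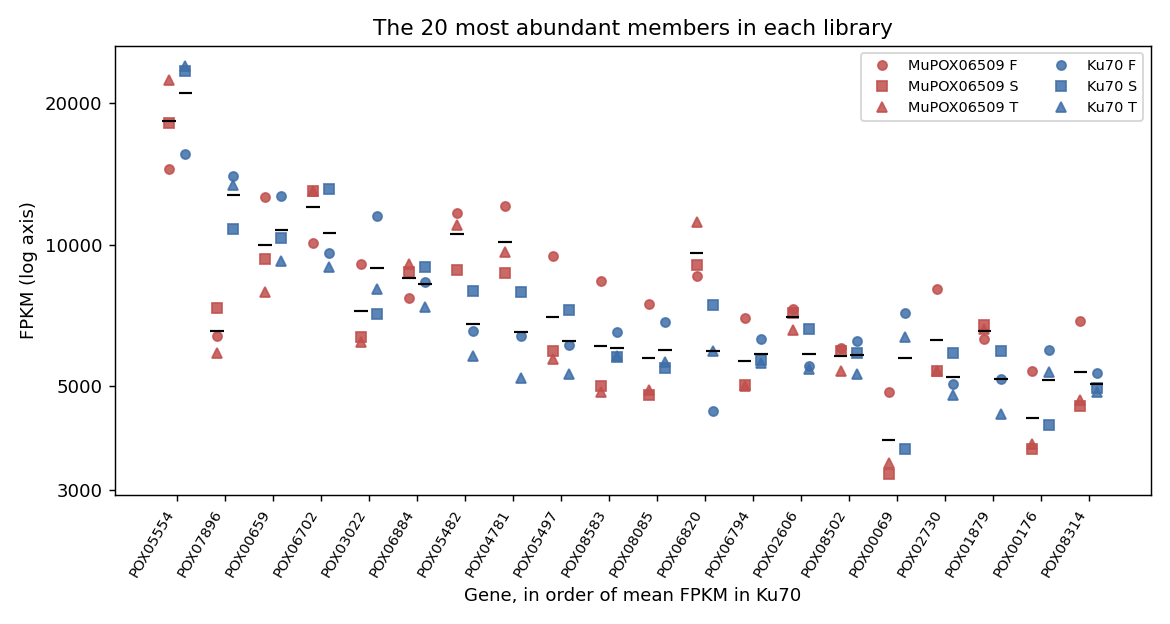
FPKM (log axis) of the 20 most abundant members, ordered by their Ku70 mean, with a point for each library, its shape giving the letter, and a bar at the mean of each strain. POX07896 stands lower in all MuPOX06509 libraries (5882 to 7336 FPKM) than in any Ku70 library (10780 to 14014 FPKM), while the strains overlap for most of the others.

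The members together held 24.9%, 22.9% and 23.1% of the expected count of the MuPOX06509 libraries, again in the order F, S and T, against 22.7%, 23.8% and 21.7% in Ku70. The mean share was 23.6 ± 1.12% in MuPOX06509 and 22.8 ± 1.03% in Ku70 (SD, n = 3 each), so the strains overlapped. Exact 95% binomial intervals reached from 24.92% to 24.97% for MuPOX06509 library F and from 21.73% to 21.77% for Ku70 library T; they cover counting error only. Since the Ku70 levels chose the members, the shares are given without a test. The 10 highest members held 6.13 ± 0.21% of counts in MuPOX06509 and 6.44 ± 0.38% in Ku70 (SD, n = 3 each). Members 51 to 100 held 9.34%, 8.76% and 8.55% in MuPOX06509, against 7.94%, 8.60% and 7.72% in Ku70; Ku70 library S lay inside the MuPOX06509 range and the other Ku70 libraries below it. Members 11 to 50 held 9.68% in MuPOX06509 library F and between 7.85% and 8.51% in the other 5 libraries.

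**Figure D2:**
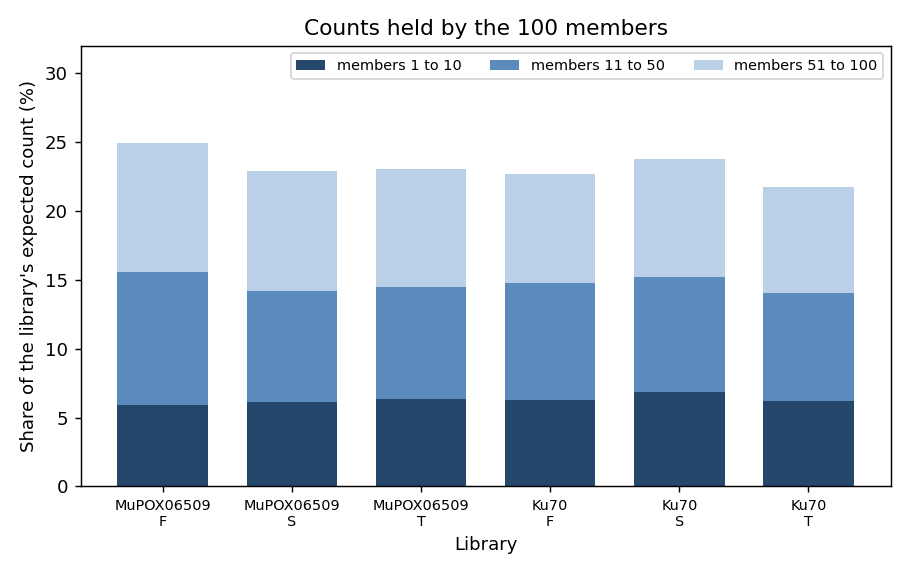
Share of each library's expected count (%) held by the members, split into the 10 highest, members 11 to 50 and members 51 to 100 of the Ku70 order. The whole bars run from 22.9% to 24.9% in MuPOX06509 and from 21.7% to 23.8% in Ku70.

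Ranks by FPKM were largely kept. Of the 100 members, 87, 84 and 83 stood among the 100 highest genes of the MuPOX06509 libraries, against 92, 88 and 89 in those of Ku70. All of them stood among the 200 highest of each of the 6 libraries. Since the Ku70 levels chose the members, the choice itself favours higher counts in Ku70. It also favours falls in rank and entries from outside in MuPOX06509. When the MuPOX06509 mean chose the 100 genes instead, 93 stood among the 100 highest of MuPOX06509 on the strain mean. That count is fixed by the choice, since 7 IDs left out hold the other places, so it says nothing about how ranks were kept. Of the IDs left out, 7 had a higher Ku70 mean than the last member and take places in the Ku70 ranking, and the most abundant gene of all, POX09358 at 38403 FPKM in Ku70, is among them. On the strain means, 86 members stood among the 100 highest of MuPOX06509, and 52 moved by at most 10 places. The largest drop was that of POX09243, at rank 99 in MuPOX06509 against rank 30 in Ku70, and the lowest MuPOX06509 place was rank 162, of POX06086. Of the 14 other genes among the 100 highest of MuPOX06509, 7 were IDs left out and 7 had been below the members. The one from furthest below was POX01764, at rank 79 in MuPOX06509 against rank 291 in Ku70. POX01764 had 2883, 3914 and 2299 FPKM in MuPOX06509, against 642, 686 and 635 FPKM in Ku70, so all MuPOX06509 libraries were above all Ku70 libraries. Its log2 change was 2.24 ± 0.22 (SE) with an adjusted p of 7.73e-05 from edgeR's quasi-likelihood test.

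Changes were tested with edgeR over all 8336 genes, MuPOX06509 against Ku70, and a gene was called at an adjusted p under 0.05. Of the 100 members 3 were called, all lower in MuPOX06509: POX07896, POX00122 and POX06086. No member was called higher by edgeR; at an unadjusted p under 0.05, 7 members were higher and 4 lower, against 13.3% higher and 15.9% lower of all tested genes. Over all tested genes 5.33% were called higher and 7.27% lower, 12.6% in all. The Ku70 levels that chose the members are an arm of this comparison, which by itself favours lower values in MuPOX06509, so nothing about the members as a set is read from these counts. DESeq2 called 5 members higher and 4 lower (16.9% of all tested genes), and limma on log2(FPKM + 1) called 2 lower and none higher (10.9%).

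POX07896 fell by 0.92 ± 0.19 (SE) on the log2 scale, with an edgeR adjusted p of 0.00995. Its mean was 6539 ± 737 FPKM in MuPOX06509 and 12730 ± 1717 FPKM in Ku70 (SD, n = 3 each), which is 0.514 times the Ku70 level. It went to rank 13 in MuPOX06509, against rank 3 in Ku70. An exact two-sided permutation test of its 6 FPKM values gave p = 0.1, the smallest that 3 libraries against 3 allow. The call was lost without MuPOX06509 library T (adjusted p 0.0728) and without Ku70 library F (adjusted p 0.0587), with log2 changes of -0.85 in both cases.

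POX00122 had 2619, 2732 and 2183 FPKM in MuPOX06509, against 3922, 3906 and 4186 FPKM in Ku70. The MuPOX06509 libraries were lower throughout, and Ku70 library S lay with Ku70 F and T for this gene. It fell by 0.64 ± 0.17 (SE) on the log2 scale (edgeR adjusted p 0.0353), to rank 103 in MuPOX06509, against rank 37 in Ku70. POX06086 had 1444, 1440 and 1598 FPKM in MuPOX06509, against 2516, 1851 and 2533 FPKM in Ku70. Ku70 library S was its lowest Ku70 value, still above all MuPOX06509 values, and the gene fell by 0.58 ± 0.17 (SE) on the log2 scale (edgeR adjusted p 0.043). When single libraries were left out, the call of POX00122 held in 2 of 6 fits, with adjusted p up to 0.19 without MuPOX06509 library T, and also failed without MuPOX06509 S, Ku70 F and Ku70 T. That of POX06086 held in 1 of 6, the fit without Ku70 library S, with adjusted p up to 0.166 otherwise.

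Most members had small fitted changes between the strains. The fitted log2 changes ran from -0.92 for POX07896 to 0.72 for POX06820, and 93 of 100 lay within 1.5-fold, against 80.2% of all tested genes. The tested genes reach down to the low-count filter, with its minimum count of 10, while every member had at least 5912 counts. The 2 shares are therefore not matched for depth. The median change was 0.11 over the members and 0.01 over all tested genes, and 65 members had a positive value, against 51.5% of all tested genes. Without MuPOX06509 library F, the library in which 79 members were at their strain's highest, the median was -0.02 and 47 were positive. The median size of the change, whatever its direction, was 0.21 on the log2 scale over the members, 0.26 over the next 900 genes in the Ku70 order and 0.28 over all tested genes.

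**Figure D3:**
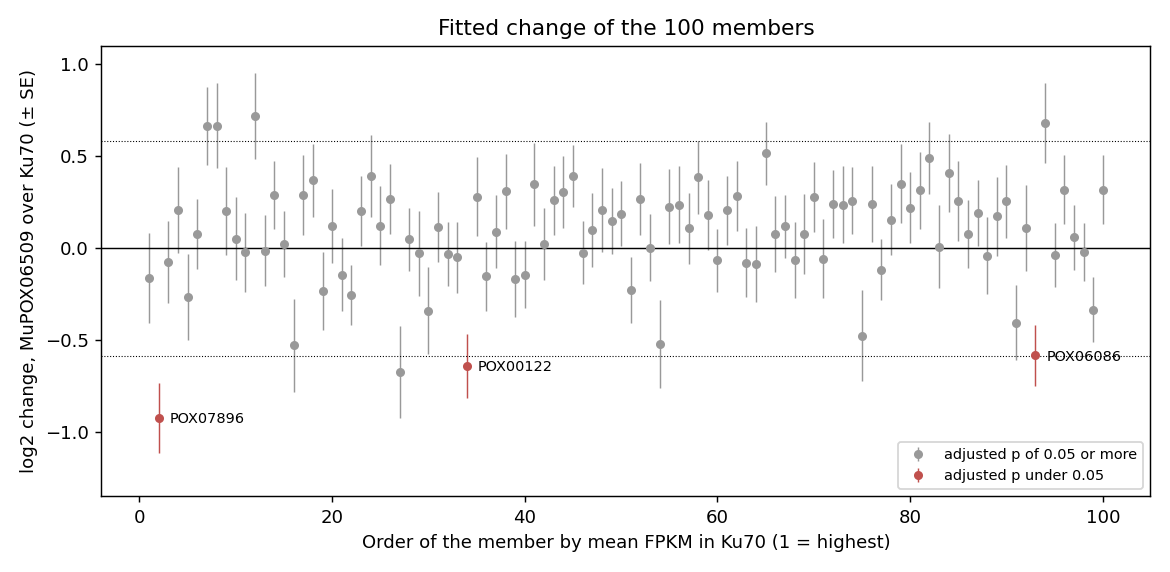
Fitted log2 change of each member, MuPOX06509 over Ku70, with its approximate SE, against its place in the Ku70 order; dotted lines mark 1.5-fold. The called genes POX07896, POX00122 and POX06086, in red, all lie below 0, and 93 of the 100 points lie between the dotted lines.

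Of the members, 17 had groups that did not overlap in FPKM, 13 higher and 4 lower in MuPOX06509. Over all tested genes the groups did not overlap, in either direction, for 31.1%. That share was not split by direction, so nothing is read from the 13 against the 4. POX06820 had the largest positive change, with 8569, 9033 and 11169 FPKM in MuPOX06509, against 4416, 7442 and 5930 FPKM in Ku70. Its log2 change of 0.72 ± 0.24 (SE) missed the threshold, with an edgeR adjusted p of 0.0711. POX06513 had 2818, 4449 and 3594 FPKM in MuPOX06509, against 2364, 2543 and 1992 FPKM in Ku70, for which edgeR gave a log2 change of 0.68 ± 0.22 (SE) and an adjusted p of 0.0681. For POX05482 the log2 change was 0.66 ± 0.21 (SE) with an edgeR adjusted p of 0.0644, and for POX04781 it was 0.67 ± 0.23 (SE) with an edgeR adjusted p of 0.0817. POX06393, at 4109, 4049 and 4040 FPKM in MuPOX06509 against 2453, 3103 and 3173 FPKM in Ku70, had an edgeR adjusted p of 0.0777. These 5 genes, of which POX06820, POX06513 and POX06393 are named after their values were seen, are the 5 that DESeq2 called higher.

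Ku70 library S stood apart from the other Ku70 libraries in the members' profile. Across the 100 members, log2(CPM + 1), where CPM is the count scaled to library size alone, correlated between Ku70 library S and MuPOX06509 libraries F, S and T at r = 0.956, 0.982 and 0.977. The same library correlated with Ku70 libraries F and T at 0.928 and 0.939, while Ku70 F and T correlated at 0.971. MuPOX06509 S and T correlated at 0.993, and MuPOX06509 F correlated with them at 0.960 and 0.963. These coefficients describe 100 genes that share the same libraries. For 80 of the 100 members Ku70 S was nearer to the MuPOX06509 mean than to the mean of Ku70 F and T, on log2(FPKM + 1), against 59.2% of all tested genes. The same count was 25 for Ku70 library F and 27 for Ku70 library T, against 25.1% and 26.3% of all tested genes. Each of these was set against the mean of the other Ku70 libraries, which includes Ku70 S. The total count of Ku70 S, 15022017, was the lowest of the Ku70 libraries but lay inside the range of the MuPOX06509 libraries. Its POX06509 count was the highest of the 6.

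The number of calls moved with this library. Without Ku70 S, edgeR called 10 members higher and 5 lower, where 25.7% of all tested genes were called. Without both Ku70 S and MuPOX06509 F, it called 24 higher and 16 lower, where 43.0% of all tested genes were called; both libraries were picked for standing apart in these data. Whether the position of Ku70 S comes from the culture, the RNA or the library was not tested.

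**Figure D4:**
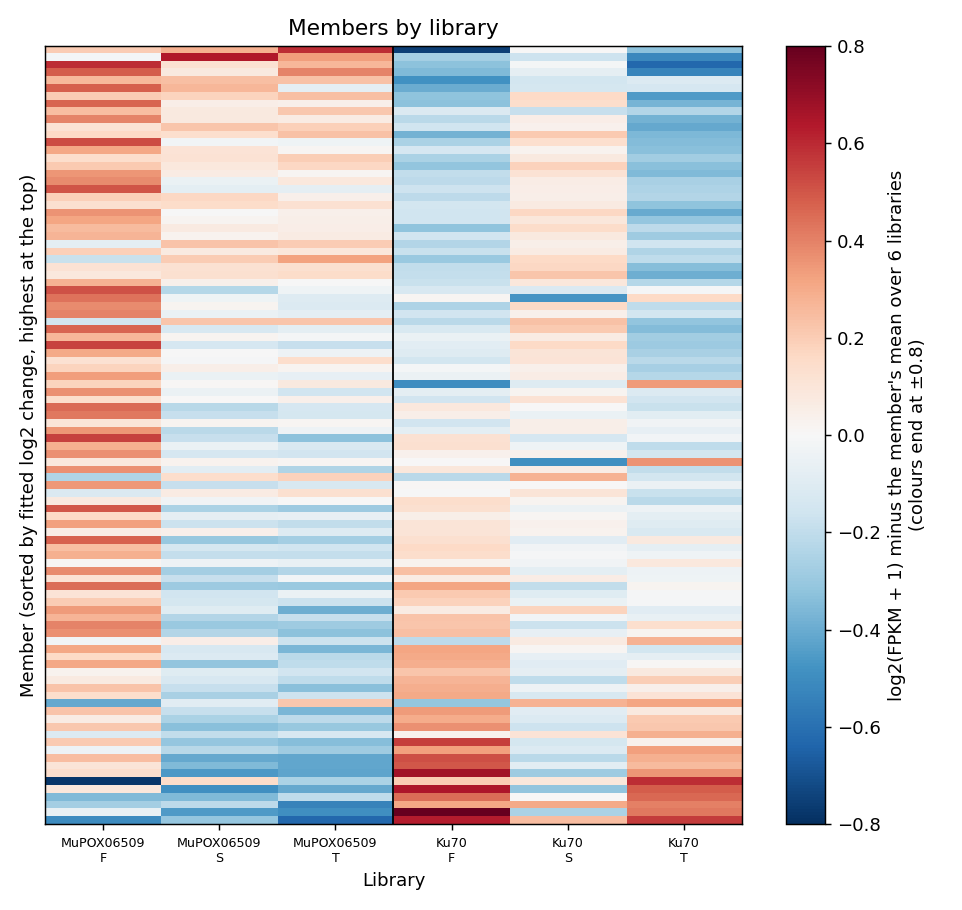
Each member's log2(FPKM + 1) in each library less its mean over the 6 libraries, members sorted by the fitted change with the highest at the top, and MuPOX06509 libraries left of Ku70 libraries. Ku70 S is paler than Ku70 F and T at the top and bottom of the map, and MuPOX06509 F is red in most rows, being the highest MuPOX06509 library for 79 members.

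Spread between libraries was given as the coefficient of variation of FPKM, the SD in percent of the mean. Over the members its median was 14.9% in MuPOX06509 and 13.2% in Ku70. The next 900 genes in the Ku70 order had medians of 12.6% in MuPOX06509 and 14.0% in Ku70. The most variable member in Ku70 was POX09243, with 3132, 2386 and 2327 FPKM in MuPOX06509, against 5800, 2744 and 4372 FPKM in Ku70, a coefficient of 17.2% in MuPOX06509 and 35.5% in Ku70. POX00069 came next, with 4859, 3245 and 3428 FPKM in MuPOX06509, against 7141, 3669 and 6370 FPKM in Ku70. In both genes Ku70 S lay inside the MuPOX06509 range, and neither was called by edgeR on all 6 libraries (adjusted p 0.104 for POX09243 and 0.192 for POX00069). Without Ku70 S edgeR called both lower (adjusted p 0.0177 for POX09243 and 0.0356 for POX00069), where 25.7% of all tested genes were called. Both genes were picked for their spread in Ku70, and Ku70 S was the lowest Ku70 library of each. Leaving it out therefore favours these calls by itself, and nothing further is read from them. DESeq2 called POX09243 lower (adjusted p 0.0397). Of the 18 alternative fits, 4 called POX09243 and 2 called POX00069, both of the latter without Ku70 S. The steadiest member in Ku70 was POX04027, at 3160, 2177 and 2268 FPKM in MuPOX06509 against 2490, 2488 and 2402 FPKM in Ku70. Its coefficient was 2.05% in Ku70 and 21.4% in MuPOX06509, where library F stood above the rest. The Ku70 coefficient chose the most variable and the steadiest members, which by itself favours less extreme values in MuPOX06509. No difference in spread between the strains is read from these genes. POX06036, with 3688, 3008 and 3360 FPKM in MuPOX06509 and 3565, 3552 and 3336 FPKM in Ku70, had coefficients of 10.1% in MuPOX06509 and 3.69% in Ku70.

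Within MuPOX06509, library F differed from the others in step with gene length. That library had the highest FPKM of its strain for 79 of the members, against 42.0% of all tested genes. The length implied by a gene's count and FPKM had a median of 465 bases over the members, 796 over the next 900 genes and 1288 over all tested genes. Because FPKM divides by length, short genes reach a high FPKM with fewer counts; 63 of the members were also among the 100 highest by CPM, a set with a median length of 844 bases. Among the 25 shortest members, of 125 to 344 bases, MuPOX06509 F was the highest of its strain in 23, and its median deviation from the other 2 libraries was 0.51 on the log2 scale. The 25 longest, of 670 to 1735 bases, had it highest in 10, with a median deviation of -0.01. Spearman's rho between that deviation and length was -0.69 over the 100 members and -0.55 over all tested genes. Over the members it was -0.31, 0.29 and -0.15 for Ku70 F, S and T, and 0.62 and 0.59 for MuPOX06509 S and T. Ku70 F thus shared the sign of MuPOX06509 F at a smaller size, also over all tested genes (-0.19). The values within a strain are tied, since each deviation is taken from the other 2 libraries.

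The lengths behind the deposited FPKM were the same in every library, to within a factor of 1.005 for each member, so the trend lies in the counts and not in the scaling to length. The median fitted change, MuPOX06509 over Ku70, was -0.01 in the 25 shortest members and 0.21 in the 25 longest. That difference ran opposite to the deviation of MuPOX06509 F, which was highest in the short members. The other libraries had length trends of their own, and how much each library adds to the difference was not tested. With the length trend of each library removed, a setting added after the data were seen, edgeR called POX05482 higher (adjusted p 0.0449) and POX07896 lower (log2 change -0.85), where 15.2% of all tested genes were called. POX00122 kept a log2 change of -0.54 (edgeR adjusted p 0.0517) and POX06086 of -0.50 (edgeR adjusted p 0.078), in the same direction but no longer called. The cause of the trend was not tested.

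**Figure D5:**
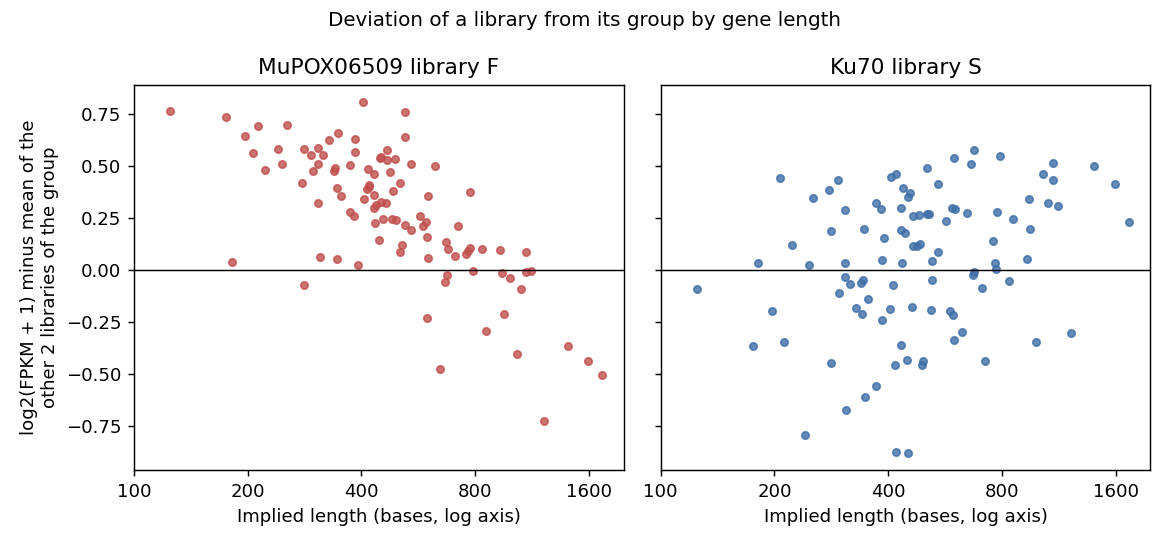
Deviation of MuPOX06509 library F (left) and Ku70 library S (right) from the mean of the other 2 libraries of its strain, on log2(FPKM + 1), against implied gene length in bases (log axis), a point for each member. Short members lie above 0 in MuPOX06509 F, with a median of 0.51 in the 25 shortest and -0.01 in the 25 longest.

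The lower edge of the set was not a gap in the levels. The last member, POX07063, averaged 2721 ± 79.5 FPKM in MuPOX06509 and 2223 ± 316 FPKM in Ku70 (SD, n = 3 each). The first gene outside, POX02073, averaged 1739 ± 390 FPKM in MuPOX06509 and 2201 ± 189 FPKM in Ku70 (SD, n = 3 each). The mean Ku70 FPKM spanned a factor of 9.44 from the first member to the last. Fractional expected counts occurred in 4 of the 100 members, POX03022, POX06696, POX04076 and POX00167, and in 4.65% of all IDs, so the values of these 4 are less certain.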

How the data were processed

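Each of the 6 deposited files gives, per the file headers, the expected count and the FPKM that the authors made per gene. The tools listed in the submitters' processing notes, without roles, are DESeq2, BWA 0.7.10-r789, Bowtie2 2.1.0 and RSEM 1.2.12; build, annotation and strandedness are not given in the sources used, so overlapping or antisense genes cannot be separated. Shares, ranks, coefficients of variation and implied lengths (count over FPKM and total count) were computed in Python 3.11.15. Expected counts were rounded and went into edgeR 4.0.16 under R 4.3.3: filterByExpr with a minimum count of 10, TMM scaling, quasi-likelihood F test on all 6 libraries with the group as only term, two-sided, Benjamini-Hochberg adjustment over all genes tested. SE is the log2 change over the square root of F. The fit was tested on simulated data. Alternatives were DESeq2 1.42.0, limma 3.58.1 on log2(FPKM + 1), other scalings, filters, pseudocounts and member choices, and each library left out. The binomial intervals cover counting error only. No molecular identifiers are named, so copies of a fragment cannot be told apart and these intervals may be too narrow. Replicate libraries differed by more than counting noise over the members (chi-square over degrees of freedom 207 to 1192). The genes named are the 10 highest members, the called members, the 2 most and 2 least variable in Ku70, the largest drop in rank, the entrant from furthest below, those on either side of the lower edge, POX06509, and the 2 members most like each of the 2 highest; others were named after their values were seen. The members, these rules and the tests were chosen with earlier results of these data known.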

Additional observations from a re-analysis of the deposited data

How the results depend on the processing

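POX07896, POX00122 and POX06086 stayed lower in all 18 alternative fits, and POX07896 was called in 16 of them, POX00122 in 13 and POX06086 in 8; adjusted p reached 0.0728, 0.19 and 0.166. The same 3 genes were called with no low-count filter, with DESeq2 size factors, with TMM factors computed without the members and with library totals alone, while each of 4 limma fits called POX07896 and POX00122. DESeq2 called 5 members higher. The replicate block of letters F, S and T gave 5 members higher and 5 lower, and 898 genes higher and 1074 lower in all, against 444 and 606 without it. The main fit did not take the letters to pair the libraries. Deviations of same-letter libraries over the tested genes had r of 0.387 (F), 0.064 (S) and 0.0636 (T), and only MuPOX06509 F correlated best with its own letter. Over the members r was 0.529 (F), 0.203 (S) and 0.0188 (T), and MuPOX06509 F and S each correlated best with their own letter. These r values cannot decide whether the letters pair the libraries, since the deviations of the 3 libraries of a strain are tied together. Leaving out 1 library gave 0 to 10 members higher and 0 to 5 lower, and 286 to 1031 genes higher and 273 to 1109 lower in all. Settings added after the data were seen gave, without MuPOX06509 F and Ku70 S, 24 members higher and 16 lower with 1839 genes higher and 1749 lower in all, and, with the length trend removed, 1 member higher and 1 lower with 585 genes higher and 682 lower in all. Choosing the 100 genes by the mean of all 6 libraries (94 shared) gave 1 higher and 2 lower, by the MuPOX06509 mean (91 shared) 2 higher and 2 lower, and by CPM (63 shared) 1 higher and 5 lower, with 28.0% of MuPOX06509 and 27.0% of Ku70 counts. The 50 highest held 14.8% of MuPOX06509 and 14.7% of Ku70 counts, with 49 among the 100 highest of MuPOX06509. The 200 highest held 35.9% and 34.7%, with 3 higher and 10 lower. With no ID left out, the 100 highest held 25.6% of MuPOX06509 and 25.9% of Ku70 counts. The causes of these moves were not tested. No scaling moved the median change of all tested genes by as much as 0.1 on the log2 scale. The lowest count of any member in any library was 5912.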

Other observations

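The members included 3 pairs with consecutive ID numbers, POX04075 with POX04076, POX06393 with POX06394, and POX08198 with POX08199, named after their values were seen. POX06393 was higher in every MuPOX06509 library than in any Ku70 library, while its neighbour POX06394 had 3990, 2882 and 2753 FPKM in MuPOX06509, against 2990, 2133 and 3298 FPKM in Ku70, with overlap. For POX08198 the mean was 3336 ± 362 FPKM in MuPOX06509 and 2950 ± 352 FPKM in Ku70, and for POX08199 it was 2997 ± 678 FPKM in MuPOX06509 and 2900 ± 311 FPKM in Ku70 (SD, n = 3 each). Whether ID numbers follow chromosome order is not stated in the labels.

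The members whose log2(FPKM + 1) followed that of POX07896 most closely over the 6 libraries were POX00122, with Pearson's r of 0.967, and POX06086, with r of 0.927. These are the other called members, and the 6 libraries fall into 2 strains, so the coefficients hold the strain difference. The closest to POX05554 were POX08673, with r of 0.628, and POX06145, with r of 0.546. POX06145 had 1538, 2920 and 2218 FPKM in MuPOX06509, against 3037, 2812 and 3972 FPKM in Ku70, with MuPOX06509 F the lowest of all libraries, as for POX05554. No p is attached, because the pairs were picked as the closest of the 100 members.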
